A study of Mus musculus with 28 samples.

Results

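Solute carriers of inorganic ions and metals were followed across the mouse colon before and during tumour formation. They were taken as every gene whose symbol in the authors' deposited table belongs to SLC family 4, 8, 9, 11, 12, 20, 24, 26, 30, 34, 39, 40 or 41, with Slc26a3 left out. This gave 54 genes of 13 families among the 14123 genes with a name and a value. Family 39 was the largest with 13 members, and families 9 and 12 held 7 each. The gene listed as SLC24A6, now called Slc8b1, was counted in family 24 as the rule asks.

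The colon takes up sodium, chloride and water and secretes bicarbonate and potassium, and carriers in the apical and basolateral membranes of its epithelium do much of that work. Exchangers and cotransporters of families 4, 9, 12 and 26 move bicarbonate, protons, chloride, potassium and sulfate, and families 8 and 24 exchange sodium for calcium. Families 20 and 34 carry phosphate, family 39 brings zinc and related metals into the cytosol, family 30 takes them out, families 11 and 40 handle iron, and family 41 handles magnesium.

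Female C57BL/6J mice at a weight of about 18 to 20 g were given azoxymethane, a carcinogen, into the peritoneum at 10 mg/kg. From 96 hours later they drank 2.5% dextran sulfate sodium (DSS), which injures the colon lining, for 5 days and then water for 14 days. The early group had 2 such cycles and was taken on day 42, the late group had 4 and was taken on day 120, and controls were untreated mice. Proximal and distal colon were put on separate arrays, with 6 untreated proximal, 6 untreated distal, 3 early proximal, 3 early distal, 4 late proximal and 6 late distal arrays. The labels report dysplasia in the early group, dysplasia and intramucosal adenocarcinoma in the distal colon of the late group, and an unaffected proximal colon. They describe at least 3 animals per condition and do not say which arrays share an animal. The samples are pieces of colon wall, so a lower level may mean fewer cells of a type or less RNA per cell, and these cannot be told apart.

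Some arrays stood apart. Hoxd13, a gene of the hind end of the body axis, read 11.38 in untreated proximal 1 and 3.44 in untreated distal 3, so that each of these arrays had the level of the other region. Results on the untreated regions are therefore given with and without both. The mean of 5 pancreatic acinar markers was 9.24 to 12.75 in untreated proximal 1, untreated distal 1, early distal 3 and late distal 2, 3 and 5, and at most 7.91 in the other arrays. Calls of named carriers that were lost without these 6 arrays are stated beside them. Values in the early arrays carry more digits than those in the others (50.8% of values with over 6 digits, against 0% elsewhere), so early differences cannot be told apart from a difference in how those values were made. All levels are log2 expression values as the authors deposited them, array medians lay between 6.61 and 6.8, and with 3 to 6 arrays a group the precision is limited.

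Differences are log2 differences of group means with their standard error (SE) from one limma model of all 28 arrays. A gene is said to rise, fall or be called where the p-value adjusted over the 14123 genes was under 0.05. Because levels near 4.11, the median of probe sets outside the authors' table, may be background, the size of a change from or to such a level is uncertain.

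In the late distal colon, Slc30a2, a zinc carrier that loads secretory vesicles, rose by 5.88 ± 0.24 (SE, n = 6 and 6), a ratio of 58.8. Slc4a11, a proton and water carrier once described as a borate transporter, rose by 3.12 ± 0.23. The deepest falls were those of the sodium-calcium exchanger Slc8a1 (-2.28 ± 0.41), the manganese exporter Slc30a10 (-2.12 ± 0.50) and the sodium-proton exchanger Slc9a2 (-2.02 ± 0.26). Of the 54 carriers, 35 were called against the untreated distal colon, 16 higher and 19 lower. Over all genes 48.5% were called, 26% higher and 22.6% lower, and the median absolute log2 difference was 0.36 over all genes and 0.53 over the carriers. Changes of at least 2-fold were made by 15 carriers, 6 upward and 9 downward, and the share of all genes at that size was not counted. The 6 late and 6 untreated distal arrays did not overlap for 22 carriers, and the same was true for 23.6% of all genes. Leaving out single arrays gave 32 to 36 calls. Under all alternatives run for them, 23 of the 35 calls held, 11 of them rises and 12 falls.

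**Figure D1:**
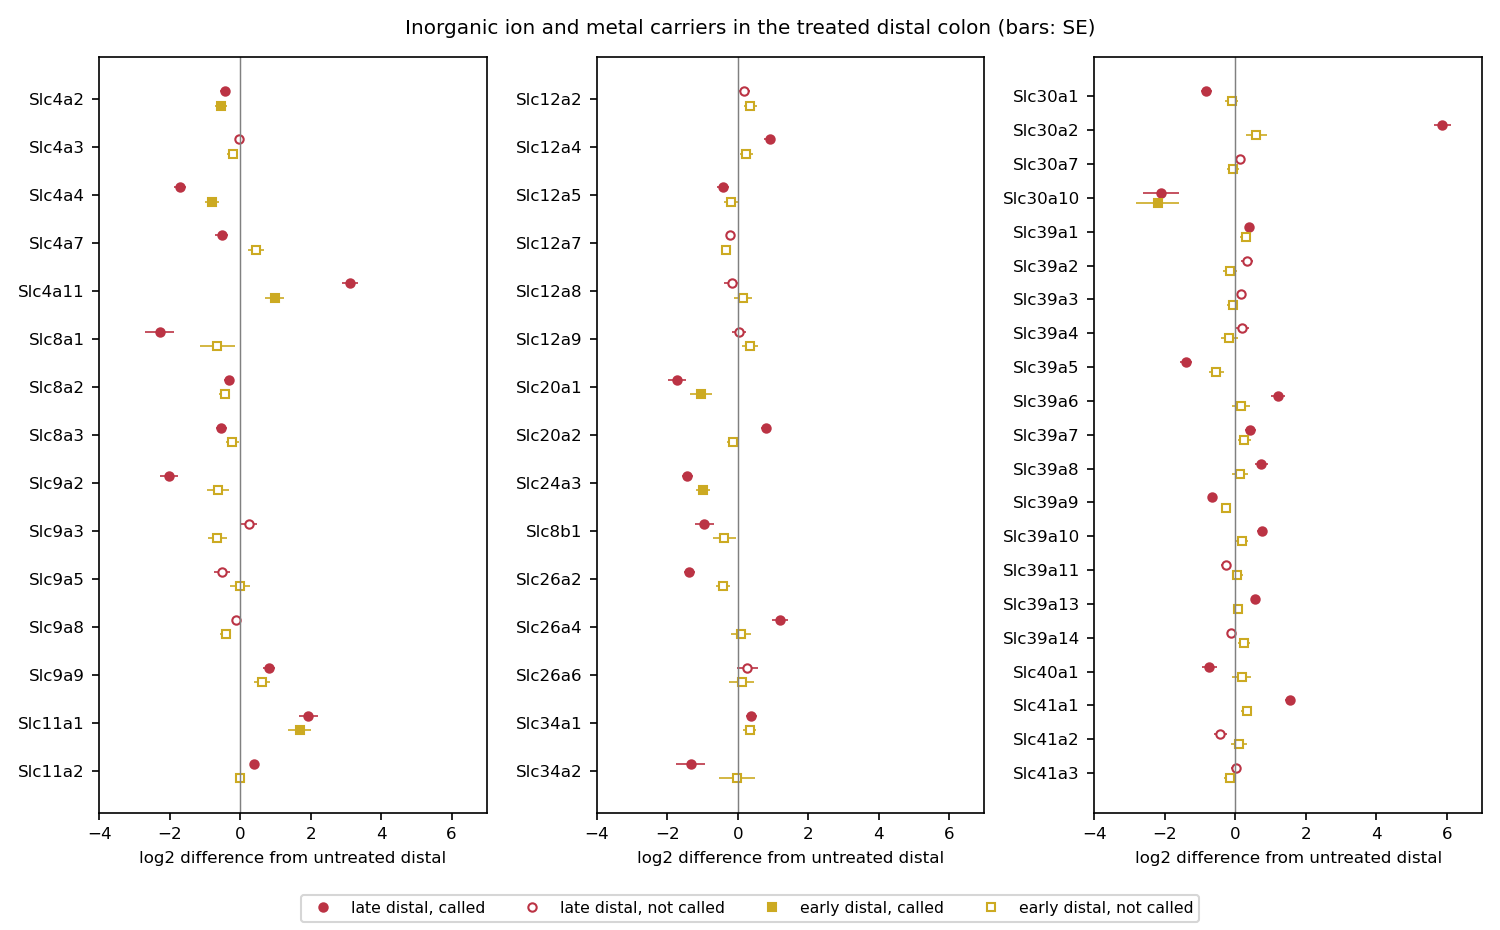
Log2 difference from the untreated distal colon (x axis) for 51 of the carriers (y axis, by family), in the late (circles) and early (squares) distal colon, with bars of 1 SE and filled symbols for called genes. Slc30a2 lies far to the right of all other carriers in the late distal colon and was not called in the early one.

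Cell type markers changed in the same arrays, and the part of those cells in the carrier values was not tested. Of the 6 absorptive colonocyte markers measured, 6 fell in the late distal colon (median -1.42), and their mean level went from 12.8 to 12.9 in the untreated distal arrays to 10.5 to 12.3 in the late ones. All 6 neutrophil markers rose (median 4.81), with a mean of 4.72 to 5.75 before and 9.68 to 10.7 after. Of 8 macrophage markers 6 rose and 1, Cd163, fell (median 1.46), of 5 T cell markers 5 rose, and of 6 plasma and B cell markers 5 rose. Of the 4 colon epithelium markers measured 3 fell (median -0.32), with a mean of 11.7 to 12.3 in the untreated distal arrays and 11.2 to 11.7 in the late ones. Of 6 smooth muscle markers 5 fell (median -0.37), of 8 enteric neuron and glia markers 7 fell (median -0.74), of 4 adipocyte markers 3 fell and of 4 goblet cell markers 2 fell.

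Of the 5 members of family 4, 3 bicarbonate carriers fell and 1 gene, Slc4a11, rose. Slc4a4, the sodium bicarbonate cotransporter that loads epithelial cells across the basolateral membrane, read 12.01, 12.21 and 12.69 (lowest, median and highest) in the untreated distal colon and 10.25, 10.53 and 11.04 in the late distal colon. All late arrays lay below all untreated ones, a difference of -1.71 ± 0.17 (limma adjusted p = 1.53e-08). Its early distal arrays read 12.22, 10.96 and 11.23, so that early distal 1 lay among the untreated arrays and the other two below them. The late proximal arrays, at 11.46, 11.74, 11.94 and 11.70, overlapped the untreated proximal range of 11.68 to 12.04. Slc4a2, a chloride-bicarbonate exchanger, differed by -0.42 ± 0.14 (adjusted p = 0.0155), but this call was lost without untreated distal 3 and without the arrays with acinar transcripts. The cotransporter Slc4a7 fell by 0.53 (SE 0.17, adjusted p = 0.015), and Slc4a3, a further chloride-bicarbonate exchanger, had a difference of -0.03 ± 0.13 and was not called.

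Slc4a11 went the other way from its family. It read 4.36, 4.83 and 4.99 in the untreated distal colon, close to background, and 7.54, 7.93 and 8.36 in the late distal colon, with no overlap (adjusted p = 9.39e-11). In the early distal arrays it read 4.43, 6.34 and 6.49. Early distal 2 and 3 thus lay between the untreated and the late arrays, and early distal 1 lay within the untreated range. The proximal arrays stayed between 4.76 and 5.68 in all 3 states.

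Among the 7 sodium-proton exchangers of family 9, 1 rose and 1 fell. Slc9a2, an apical exchanger of the gut epithelium, read 11.52, 11.96 and 12.28 in the untreated distal and 9.0, 9.90 and 10.98 in the late distal colon. The groups did not overlap (adjusted p = 7.25e-07), and among the late arrays late distal 3 was lowest and late distal 4 highest. Early distal arrays at 11.44, 11.34 and 11.03 lay just below the untreated range, and the early difference of -0.64 ± 0.31 was not called (adjusted p = 0.215). Slc9a3, the main apical exchanger of sodium absorption, had a difference of 0.25 ± 0.23 (adjusted p = 0.37). Slc9a9, an exchanger of endosomes, rose by 0.82 ± 0.18 (adjusted p = 0.000489). Slc9a5 and Slc9a8 differed by -0.51 and -0.11, both without a call.

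All 5 sodium-calcium exchangers of families 8 and 24 fell. Slc8a1, which is strongly used by muscle and nerve, read 7.16, 7.67 and 10.44 in the untreated distal colon and 5.57, 6.06 and 6.36 in the late distal colon, without overlap (adjusted p = 7.45e-05). The highest untreated distal value belonged to untreated distal 3, and without that array the difference was -1.85 (adjusted p = 7.85e-05). Smooth muscle and neuron markers were lower in the same arrays, as given above, and their part was not tested. Slc24a3, which also exchanges potassium, read 9.77, 10.14 and 10.36 against 8.06, 8.82 and 9.01, a fall of 1.43 (SE 0.16, adjusted p = 1.29e-07). Its early distal arrays, at 9.33, 9.12 and 8.89, lay below every untreated distal array. Slc8b1, the sodium-calcium exchanger of mitochondria, read 7.30, 9.14 and 9.18 before and 7.54, 7.81 and 8.26 after, with the overlap due to untreated distal 3 alone. Its difference was -0.95 ± 0.27 with that array and -1.26 without it (adjusted p = 0.00505 and 1.9e-05). The dim genes Slc8a3 and Slc8a2, which the nervous system uses, differed by -0.53 ± 0.15 (adjusted p = 0.00524) and -0.32 ± 0.13 (adjusted p = 0.0434), and the call for Slc8a2 was lost without any one of 6 arrays and without the arrays with acinar transcripts (-0.37, adjusted p = 0.095).

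Among the cation-chloride cotransporters of family 12, Slc12a4, found in most cells, rose by 0.91 ± 0.15 (adjusted p = 2.78e-05), and the late and untreated distal arrays did not overlap. Slc12a5, the neuronal member, differed by -0.41 ± 0.17 (adjusted p = 0.0426), and that call was lost in 12 of 23 alternatives, among them the one without the arrays with acinar transcripts (adjusted p = 0.101). Slc12a2, the basolateral sodium-potassium-chloride cotransporter that feeds chloride secretion, differed by 0.18 ± 0.16 and was not called, and neither were Slc12a7, Slc12a8 and Slc12a9 (-0.23, -0.17 and 0.04).

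The anion exchangers of family 26 had 1 rise and 1 fall among 3. Slc26a2, a sulfate carrier, was among the brightest carriers, at 13.08, 13.21 and 13.42 in the untreated distal colon. In the late distal colon it read 11.33, 11.89 and 12.32, below every untreated array (-1.38 ± 0.16, adjusted p = 1.47e-07). Early distal 1, at 13.34, lay in the untreated range, and early distal 2 and 3, at 12.51 and 12.56, lay below it. Slc26a4 (pendrin), an exchanger of chloride, iodide and bicarbonate, read 4.91, 5.49 and 6.00 before and 5.85, 6.79 and 7.60 after, a rise of 1.2 ± 0.23 (adjusted p = 0.000128). Late distal 2, its lowest late array, overlapped the untreated range. Slc26a6, an apical anion exchanger, differed by 0.27 ± 0.29 (adjusted p = 0.443).

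**Figure D2:**
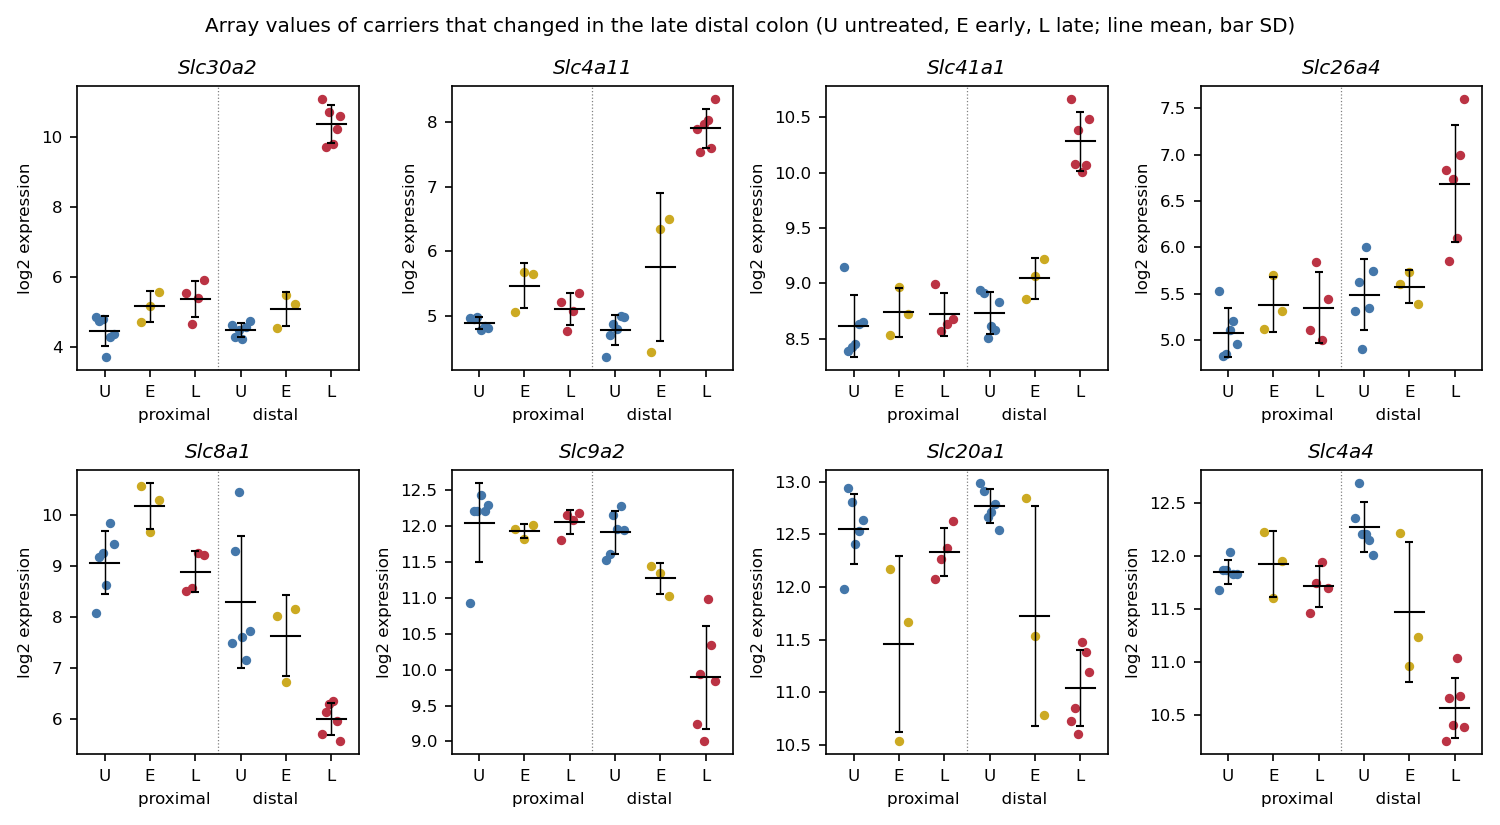
Log2 expression (y axis) of 8 carriers in every array of the 6 groups (x axis, U untreated, E early and L late, proximal left and distal right of the dotted line), with the group mean and a bar of 1 SD. For each gene the 6 late distal arrays have the highest or the lowest group mean. The late proximal arrays stay near the untreated ones, except for Slc30a2, with 5.53, 4.64, 5.38 and 5.89 against 3.70 to 4.85 in the untreated proximal arrays.

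The phosphate carriers also divided. Slc20a1, the sodium-phosphate cotransporter of most cells, read 12.54, 12.75 and 12.99 in the untreated distal colon and 10.61, 11.02 and 11.48 in the late distal colon, with no overlap (-1.73 ± 0.26, adjusted p = 9.1e-06). It was the only carrier called lower in the early distal and the early proximal colon alike. Early distal arrays read 12.85, 11.53 and 10.78 and early proximal arrays 12.17, 10.54 and 11.67, and early distal 1 lay in the untreated range. The early distal call was lost without the arrays with acinar transcripts (-0.53, adjusted p = 0.494). Both early calls were lost with the replicate number as a fixed block (adjusted p = 0.111 distally and 0.129 proximally). Slc34a2, the phosphate carrier of the intestinal brush border, read 8.93, 10.53 and 10.98 before and 8.73, 8.97 and 9.36 after (-1.34 ± 0.42, adjusted p = 0.0105). Its lowest untreated value was that of untreated distal 3. The call was lost without the arrays with acinar transcripts (-1.16, adjusted p = 0.116) and with untreated arrays 1 to 3 alone. In the late proximal colon it read 10.48, 7.72, 7.79 and 7.21, so that late proximal 1 stood far above the other three. Slc20a2 rose by 0.80 ± 0.15 (adjusted p = 8.6e-05) on the probe set used, while its other probe set gave -0.52, so its direction is uncertain. Slc34a1, a kidney phosphate carrier that was dim here, differed by 0.39 ± 0.14 (adjusted p = 0.0299), and 9 of 23 alternatives lost this call, among them the one without the arrays with acinar transcripts (0.28, adjusted p = 0.267).

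Zinc carriers made up 17 of the 54 genes, and 7 of them rose and 4 fell in the late distal colon, where 26% of all genes rose and 22.6% fell. Slc30a2 read 4.22, 4.52 and 4.73 in the untreated distal colon, at background level, and 9.70, 10.41 and 11.08 in the late distal colon (adjusted p = 2.09e-15). Every late array was at least 4 log2 units above every array of the other 5 groups except late proximal 4, whose 5.89 was the highest value outside the late distal colon. Early distal arrays read 4.53, 5.48 and 5.21 and were not called (0.60 ± 0.30, adjusted p = 0.226). This gene is used by pancreatic acinar cells among others, so the acinar transcripts bear on it. Late distal 1, 4 and 6, which were low in acinar markers, read 11.08, 9.80 and 10.60, late distal 2, 3 and 5 read 9.70, 10.71 and 10.22, and the difference without the 6 arrays was 6.05.

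The zinc exporter of the plasma membrane, Slc30a1, fell by 0.83 (SE 0.16, adjusted p = 0.000129), from 11.08, 11.46 and 12.12 to 10.47, 10.60 and 11.02, with no overlap. Slc30a7, a carrier of the Golgi, differed by 0.13 ± 0.15 and was not called. Slc30a10 belongs to the zinc exporter family by sequence and exports manganese. It read 5.36, 6.13 and 7.40 in the untreated distal colon, 4.83, 3.81 and 3.58 in the early and 3.53, 4.26 and 4.85 in the late distal colon, so that early and late arrays lay below all untreated distal ones and reached background. Both falls were called, at -2.21 ± 0.62 (adjusted p = 0.0192) early and -2.12 ± 0.50 (adjusted p = 0.00127) late, and the early call was lost without the arrays with acinar transcripts (-2.01, adjusted p = 0.0954). Untreated proximal arrays spread from 4.41 to 8.54, the lowest being untreated proximal 1.

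Among the 13 members of family 39, 6 rose, 2 fell and 5 were not called. Slc39a6, a zinc importer of the plasma membrane, read 7.44, 8.06 and 8.48 before and 8.68, 9.26 and 9.61 after, without overlap (1.22 ± 0.20, adjusted p = 2.23e-05). Its close relative Slc39a10 went from 9.16, 9.60 and 9.75 to 10.06, 10.20 and 10.70 (0.76 ± 0.13, adjusted p = 5.88e-05), again without overlap. Slc39a8, which imports zinc and manganese, rose by 0.74 ± 0.19 (adjusted p = 0.00245), from 9.66 to 10.44 in the untreated distal colon to 10.42 to 11.25 in the late one. Slc39a13 rose by 0.55 ± 0.12 (adjusted p = 0.000447), Slc39a7, which releases zinc from the endoplasmic reticulum, by 0.42 ± 0.16 (adjusted p = 0.0294) and Slc39a1 by 0.40 ± 0.13 (adjusted p = 0.0138), and the call for Slc39a7 was lost in 7 of 24 alternatives.

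Slc39a5, the zinc importer of the basolateral side of the gut epithelium, moved against these. It read 8.90, 9.25 and 9.56 in the untreated distal, 9.13, 8.58 and 8.34 in the early distal and 7.18, 7.95 and 8.25 in the late distal colon, and the late arrays lay below all the others (-1.41 ± 0.17, adjusted p = 5.26e-07). Slc39a9, a carrier of the Golgi, fell by 0.66 (SE 0.11, adjusted p = 1.77e-05). Slc39a4, the apical importer of dietary zinc, was not called in the late distal colon (0.19 ± 0.19, adjusted p = 0.417, 95% interval -0.20 to 0.59). Untreated distal 3 read 11.99 and the other untreated distal arrays 10.15 to 10.83, and without that array the difference was 0.42 ± 0.14 and was called (adjusted p = 0.0129). Slc39a2, Slc39a3, Slc39a11 and Slc39a14 had differences of 0.33, 0.17, -0.27 and -0.11 and were not called either.

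**Figure D3:**
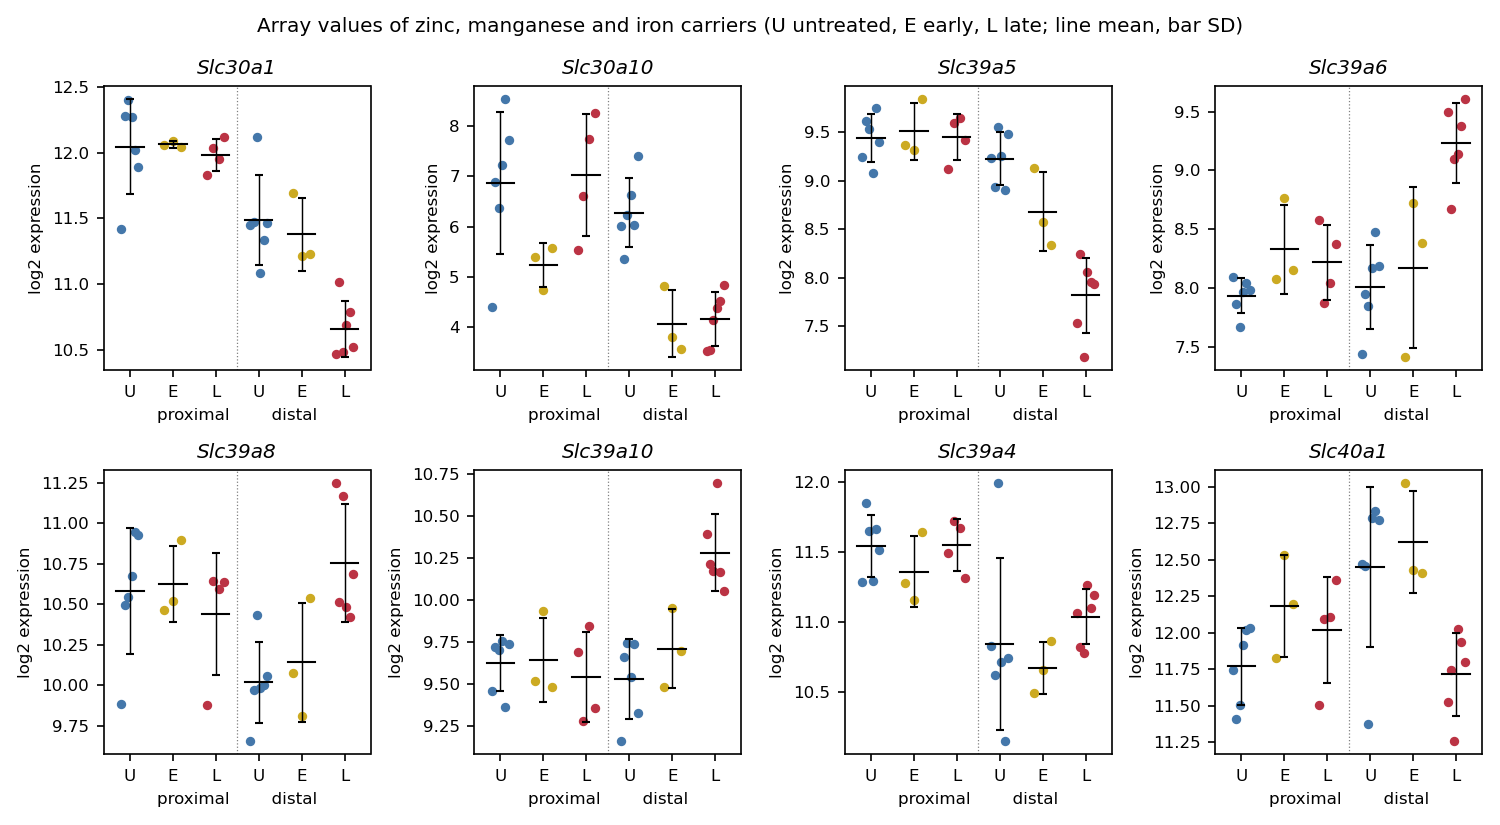
Log2 expression (y axis) of 8 zinc, manganese and iron carriers in every array, by group (x axis, U untreated, E early and L late, proximal left and distal right of the dotted line), with the group mean and a bar of 1 SD. Slc30a1, Slc30a10 and Slc39a5 are lowest in the late or early distal arrays, Slc39a6 and Slc39a10 highest in the late distal arrays, and untreated distal 3 stands apart in Slc39a4 and Slc40a1.

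Both members of family 11 rose. Slc11a1, which moves iron and manganese out of the phagosomes of macrophages and neutrophils, read 6.12, 6.82 and 7.14 in the untreated distal colon, 7.39, 8.60 and 9.18 in the early and 8.33, 8.65 and 8.92 in the late distal colon. No treated distal array overlapped the untreated ones, and the differences were 1.68 ± 0.33 early (adjusted p = 0.00129) and 1.93 ± 0.27 late (adjusted p = 3.21e-06). The early call was lost without the arrays with acinar transcripts (1.2, adjusted p = 0.105). Macrophage and neutrophil markers rose in the same arrays, as given above, and their part was not tested. Slc11a2, the iron importer of the gut and of endosomes, rose by 0.40 ± 0.12 (adjusted p = 0.00662). Slc40a1 (ferroportin), the iron exporter, read 11.38, 12.62 and 12.84 in the untreated distal colon, 13.03, 12.43 and 12.41 in the early and 11.26, 11.77 and 12.03 in the late distal colon. The late difference was -0.74 ± 0.21 (adjusted p = 0.00553), -0.95 without untreated distal 3, and -0.66 without a call (adjusted p = 0.0695) without the arrays with acinar transcripts.

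Slc41a1, which moves magnesium across the plasma membrane, read 8.51, 8.72 and 8.94 in the untreated distal and 10.01, 10.23 and 10.67 in the late distal colon, a rise of 1.55 ± 0.14 (adjusted p = 2.48e-09). The late arrays lay more than 1 log2 unit above every untreated distal array, and the early arrays, at 8.86, 9.07 and 9.22, overlapped the untreated ones. Slc41a2 differed by -0.43 ± 0.19 and Slc41a3, a carrier of mitochondria, by 0.01 ± 0.13, and neither was called. Without untreated distal 3, Slc41a2 was called at -0.55 ± 0.18 (adjusted p = 0.0158).

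The 250 bases before the start of Slc41a1, the magnesium carrier that rose, and of Slc30a10, the manganese exporter that fell, are shown because metal carriers can be controlled by zinc through short promoter elements. The sequences are those of RefSeq on build GRCm38.p6, on the plus strand, at chr1:131827762-131828011 and chr1:185454598-185454847, each ending at the base before the start of the gene. Capitals mark matches to the core of the metal response element, TGCACNC or TGCGCNC, on either strand.
Slc41a1: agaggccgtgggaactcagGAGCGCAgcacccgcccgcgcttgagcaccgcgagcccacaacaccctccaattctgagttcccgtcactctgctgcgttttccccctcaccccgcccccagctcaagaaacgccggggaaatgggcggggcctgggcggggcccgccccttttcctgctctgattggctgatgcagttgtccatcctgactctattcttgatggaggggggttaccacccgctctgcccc
Slc30a10: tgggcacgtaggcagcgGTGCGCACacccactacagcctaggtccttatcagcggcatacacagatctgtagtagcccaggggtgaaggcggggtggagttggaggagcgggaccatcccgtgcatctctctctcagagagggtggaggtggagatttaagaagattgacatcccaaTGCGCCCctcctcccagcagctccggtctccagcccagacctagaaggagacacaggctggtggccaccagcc
Slc41a1 has 1 match and Slc30a10 has 3, of which 2 overlap on opposite strands. The windows of the zinc carriers Slc30a1 and Slc30a2 lie inside a longer transcript and are not shown. Windows of this length were matched by name for 40 of the 54 carriers, and 19 of them (47.5%) held at least 1 match, as against 23.8% of all genes in the table. The carriers' windows had a median GC content of 61.2% and all windows 52.4%, and the second motif is rich in G and C. Matches were found for 4 of 12 carriers that rose in the late distal colon, 8 of 14 that fell and 7 of 14 that were not called. Mtf1, the factor that binds this element, differed by -0.30 ± 0.14 in the late distal colon (adjusted p = 0.0697).

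After 2 cycles, 7 carriers were called in the distal colon, against 11.3% of all genes. Slc4a11 (0.97 ± 0.28) and Slc11a1 (1.68 ± 0.33) rose, and Slc4a2 (-0.55 ± 0.17), Slc4a4 (-0.81 ± 0.21), Slc20a1 (-1.04 ± 0.32), Slc24a3 (-0.99 ± 0.20) and Slc30a10 (-2.21 ± 0.62) fell, where 7.02% of all genes rose and 4.25% fell. All 7 were also called in the late distal colon with the same sign, a comparison that shares the untreated arrays. Early distal 1 lay closest to the untreated arrays for several of them, and the count was 12 without it, 2 without early distal 2 or early distal 3 and 1 without the 6 arrays with acinar transcripts. Slc24a3 was the carrier called under every alternative.

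Late and early distal colon were compared directly, and 21 carriers were called, 11 higher and 10 lower in the late arrays, against 24.1% of all genes, 15.4% higher and 8.69% lower. Slc30a2 had the largest difference (5.28 ± 0.30, adjusted p = 1.59e-12), followed by Slc4a11 (2.14 ± 0.28), and Slc41a1, Slc26a4 and Slc39a6 were higher by 1.23, 1.11 and 1.06. Slc9a2 (-1.38 ± 0.31) and Slc8a1 (-1.63 ± 0.51) were lower. The call for Slc8a1 was lost in 4 of 18 alternatives, without the arrays with acinar transcripts (-1.50, adjusted p = 0.118), without early distal 1 or 3 and with the mean over probe sets (-0.93). Slc9a3, not called against untreated mice at either time, was 0.90 ± 0.28 higher in late than in early arrays (adjusted p = 0.0201). This call was lost in 5 of 18 alternatives, without the arrays with acinar transcripts (adjusted p = 0.0542), without early distal 2 or 3 or late distal 1, and with the replicate block (adjusted p = 0.0721). Slc11a1 (0.24 ± 0.33) and Slc30a10 (0.09 ± 0.62) were not called here. Without early distal 1 the count fell to 9.

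In the late proximal colon no carrier was called by limma, against 0.0212% of all genes. Array weights gave 5 calls and 4 carriers had an unadjusted p under 0.05, and no share of all genes is given for either count. Those 4 were Slc30a2 (0.91 ± 0.27, adjusted p = 0.234), Slc12a4 (0.50 ± 0.17), Slc39a2 (-0.47 ± 0.18) and Slc34a2 (-1.15 ± 0.47). In the early proximal colon 2 were called, against 7.59% of all genes (4.98% higher and 2.61% lower): Slc11a1 rose by 1.15 ± 0.33 (adjusted p = 0.0345) and Slc20a1 fell by 1.09 (SE 0.32, adjusted p = 0.0384). Both calls were lost without untreated proximal 2, 3 or 6 and without early proximal 2 or 3, and that of Slc20a1 also without untreated proximal 5. Neutrophil markers had a mean of 8.66 to 10.8 in the early proximal arrays, 5.21 to 5.96 in the untreated proximal arrays and 5.49 to 6.76 in the late proximal arrays. Between late and early proximal colon no carrier was called by limma, against 0.666% of all genes. Here 11 had an unadjusted p under 0.05, array weights gave 13 calls, and there were 4 without late proximal 1, again with no share of all genes.

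The late response was tested for a difference between the regions (distal change minus proximal change). It differed for 22 carriers, 9 higher and 13 lower in the distal colon, against 19.4% of all genes, 10.9% higher and 8.49% lower. This difference contains the late distal change and shares its arrays, so the signs of both are bound to each other. The largest differences of response were those of Slc30a2 (4.96 ± 0.36, adjusted p = 7.74e-10), Slc4a11 (2.90 ± 0.34, adjusted p = 2.38e-06), Slc30a10 (-2.29 ± 0.76, adjusted p = 0.0345), Slc8a1 (-2.10 ± 0.62, adjusted p = 0.0188) and Slc9a2 (-2.03 ± 0.38, adjusted p = 0.000656). Slc26a4 missed the threshold (0.93 ± 0.34, adjusted p = 0.0559), and the responses of Slc34a2, -1.34 distally and -1.15 without a call proximally, differed by -0.18 ± 0.63. Slc39a2 was the carrier called here but not in the late distal colon: its own differences, 0.33 ± 0.16 distally and -0.47 ± 0.18 proximally, were not called. Leaving out single arrays gave 17 to 23 calls, and 10 of the 22 held under every alternative. The call for Slc30a10 was lost without any one of 7 arrays (untreated proximal 3, untreated distal 4 or 6, late proximal 3 or 4, late distal 1 or 2) and without the arrays with acinar transcripts, with adjusted p up to 0.117 over its alternatives. For the early response no carrier was called by limma, against 0% of all genes. There were 5 at an unadjusted p under 0.05 and 3 calls with array weights, and no share of all genes is given for either count.

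**Figure D4:**
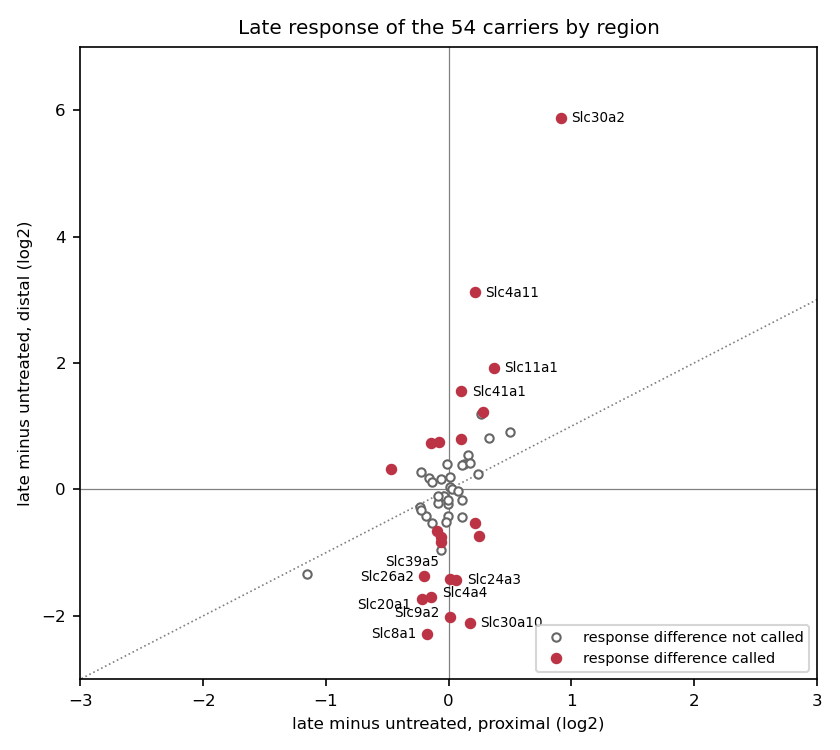
Late minus untreated log2 difference in the proximal colon (x axis) and the distal colon (y axis) for each of the 54 carriers, with filled points where the 2 responses differed and a dotted line where they would be equal. The axes differ in scale. Points spread along the distal axis from -2.28 to 5.88 and, apart from Slc34a2, stay within 1 log2 unit of 0 on the proximal axis.

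Untreated regions differed for 6 carriers, against 9.8% of all genes, 4.27% higher and 5.53% lower in the distal colon. Slc8b1 (1.23 ± 0.27, adjusted p = 0.0067) and Slc40a1 (0.68 ± 0.21, adjusted p = 0.0397) were among those higher in the distal colon, and Slc39a4 (-0.70 ± 0.19, adjusted p = 0.0228), Slc30a1 (-0.56 ± 0.16, adjusted p = 0.0261) and Slc4a2 (-0.46 ± 0.14, adjusted p = 0.0409) were lower. Without untreated proximal 1 and untreated distal 3 there were 15 calls, 4 higher and 11 lower, against 25.3% of all genes, 11.3% higher and 14% lower. Slc8b1 then stood at 1.75 ± 0.15 (adjusted p = 2.74e-09), with 9.09 to 9.18 in the other distal and 7.28 to 7.58 in the other proximal arrays. Slc39a4 stood at -0.98 ± 0.14, Slc30a1 at -0.81 ± 0.13 and Slc40a1 at 0.89 ± 0.18, and Slc8a1 was called at -1.41 ± 0.33. The count was 15 without untreated distal 3 alone and 11 without untreated proximal 1 alone. It was 3 without untreated distal 1 or without untreated proximal 2, 3, 4 or 5, and 2 without untreated distal 4 or 5. Without the arrays with acinar transcripts, the calls for Slc40a1 (adjusted p = 0.0873) and Slc4a2 (adjusted p = 0.0546) were lost.

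Late distal and late proximal colon differed for 28 carriers, 11 higher and 17 lower, against 36.9% of all genes, 19.1% higher and 17.8% lower. Early distal and early proximal colon differed for 2, against 1.9% of all genes. These were Slc8a1 (-2.53 ± 0.58) and Slc4a2, both lower in the distal colon, as were 1.27% of all genes, and the call for Slc4a2 was lost without the arrays with acinar transcripts (adjusted p = 0.0876). Without early distal 1 there were 5, and without early distal 2 or 3 or early proximal 1 or 3 there were 0. In late mice the region difference of Slc8b1 was 0.34 ± 0.30 and that of Slc40a1 -0.30 ± 0.23, neither called. Slc39a2 was 1.02 ± 0.18 higher in the late distal than in the late proximal colon (adjusted p = 7.74e-05). Slc4a2 was 0.87 ± 0.16 lower there (adjusted p = 0.000113).

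Partners of these carriers in the gut epithelium were read from a list of 36 genes, of which 34 were measured. The list shares Aqp8, Car1, Car4 and Guca2a with the absorptive colonocyte markers above and Clca1 with the goblet cell markers. Its falls are therefore not wholly separate from those of the markers. In the late distal colon 21 of the 34 fell and the other 13 were not called, where 22.6% of all genes fell, with a median of -0.50 over the list and 0.004 over all genes. Among them were Aqp8, a water channel (-2.90 ± 0.36), Car4, a carbonic anhydrase of the apical surface (-1.61 ± 0.29), Kcnk5, a potassium channel (-1.55 ± 0.20), Nr3c2, the receptor for aldosterone (-1.50 ± 0.15), Cftr, the apical chloride channel (-1.33 ± 0.15), and Scnn1a, one chain of the sodium channel ENaC (-1.25 ± 0.23). Slc9a3r1, a scaffold that holds apical exchangers, fell by 0.61 (SE 0.13). Scnn1b and Scnn1g, the other chains, were not called (0.44 ± 0.47 and 0.21 ± 0.57). In the early distal colon 4 of the 34 fell, where 4.25% of all genes fell.

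Of 35 metal handling genes 28 were measured, and 8 rose and 11 fell in the late distal colon, where 26% of all genes rose and 22.6% fell. The 5 largest rises were those of Lcn2, which binds bacterial siderophores (5.63 ± 0.48), Hp, which binds haemoglobin (4.49 ± 0.46), Cp, a copper ferroxidase (3.42 ± 0.31), Steap4, a metal reductase (2.77 ± 0.23), and Hmox1, which breaks down haem (2.39 ± 0.35). Heph, the ferroxidase that works with ferroportin in the gut, fell by 0.84 (SE 0.19). Among magnesium genes Trpm6, an apical channel, fell by 2.57 (SE 0.35), and Cnnm4, a basolateral exporter, by 1.16 (SE 0.13). Calcium genes went both ways: Trpv6, an apical channel, rose by 1.57 ± 0.52, while S100g, a calcium-binding protein, fell by 1.12 (SE 0.44), the pump Atp2b1 by 0.71 (SE 0.12) and the vitamin D receptor Vdr by 1.2 (SE 0.15). Tfrc, the transferrin receptor, and Fth1, a ferritin chain, were not called (0.13 ± 0.11 and -0.12 ± 0.10).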

How the data were processed

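Colon RNA was extracted with Trizol and amplified and biotin-labelled with NuGEN Ovation kits, per the labels' protocols. The log2 expression values of 45101 probe sets were deposited by the authors, and RMA and Partek 6.5 are named in the submitters' processing notes. The authors' deposited table gives, for 4 comparisons, group means in log2 units, a signed fold change, which is a score that skips the range from -1 to 1, and p-values with a step-up adjustment. Means recomputed from the arrays matched the deposited group means to within 0.0051 log2 units.

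Symbols of 26933 probe sets came from that table and were updated through RefSeq's gene table (GRCm38.p6). Current symbols were found for 19900 of them, synonyms for 1619, and 2314 kept the given name, and 380 with several genes and 2720 without a name were left out. Each gene was read on its brightest probe set by overall mean: 21 carriers had several, and those of Slc20a2, Slc30a7 and Slc39a14 disagreed in sign. Genes near-identical in sequence may share probes.

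limma 3.58.1 in R 4.3.3 fitted 6 group means to the 28 arrays with no covariate and moderated variances (3.78 prior on top of 22 residual degrees of freedom) and Benjamini-Hochberg adjustment over 14123 genes in each of 11 comparisons. Nothing says that arrays of a group come from separate cages or days, so the p-values measure the spread between these arrays. The fit was tested on simulated data. Other tables used Python 3.11.15 with numpy 2.4.6 and pandas 2.3.3, and figures used matplotlib 3.10.9.

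The carriers, the partner and marker lists and the tests were chosen with earlier results of these data known. Array values were given for carriers called at a log2 difference of at least 1 in the late or early distal response, the untreated regions or the late response difference, and for the carrier with the smallest p of each larger family. This named 17 carriers. Slc30a1, Slc39a4, Slc39a8, Slc39a10 and Slc40a1 were described by array after their values were seen. Other marker lists gave 1 of 1 erythroid gene higher and 0 of 5 pancreatic acinar, 0 of 3 distal position and 0 of 2 anterior position genes called in the late distal colon. Same-numbered distal and proximal arrays did not correlate throughout (residual r from -0.233 to 0.691), so the numbers were not taken to pair arrays. Some results on single carriers are not reported here.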

Additional observations from a re-analysis of the deposited data

Results flagged for a closer look

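In 68 groups of 4 or more arrays of the carriers named by array, 4 held an array far from the rest, and chance alone gives about 1 in 20. Slc9a2 read 10.93 in untreated proximal 1, while the other 5 untreated proximal arrays read 12.21 to 12.44. Slc41a1 read 9.14 in the same array, with 8.39 to 8.65 in the others. Slc8b1 read 8.68 there, with 7.28 to 7.58 in the others, and 7.30 in untreated distal 3, with 9.09 to 9.18 in the other 5 untreated distal arrays. These are the 2 arrays with the posterior Hox levels of the other region. In untreated proximal 1, however, Slc9a2 lay below and Slc41a1 above every untreated distal array (11.52 to 12.28 and 8.51 to 8.94). Untreated proximal 1 was also among the arrays with acinar transcripts.

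The late response differed between the regions for 22 carriers by the interaction term of the limma model. Distal minus proximal, those with a higher response in the distal colon were Slc30a2 (4.96), Slc4a11 (2.90), Slc11a1 (1.56), Slc41a1 (1.45), Slc39a6 (0.94), Slc39a8 (0.88), Slc39a10 (0.84), Slc39a2 (0.80) and Slc20a2 (0.70). Bicarbonate, proton, calcium and phosphate carriers with a lower response were Slc8a1 (-2.10), Slc9a2 (-2.03), Slc4a4 (-1.57), Slc20a1 (-1.51), Slc24a3 (-1.49) and Slc8a3 (-0.74). Sulfate and metal carriers with a lower response were Slc30a10 (-2.29), Slc39a5 (-1.42), Slc26a2 (-1.18), Slc40a1 (-0.98), Slc30a1 (-0.77) and Slc39a9 (-0.57). The call for Slc20a2 was lost in 5 of 34 alternatives and its other probe set gave the opposite sign in the late distal colon, so its direction is uncertain (0.19 with the mean over probe sets, adjusted p = 0.593). Calls were lost in 8 of 34 alternatives for Slc39a6, 7 for Slc39a8 and 9 for Slc40a1, and without the arrays with acinar transcripts for Slc30a10, Slc39a9 and Slc40a1 (adjusted p = 0.117, 0.0629 and 0.118).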

How the results depend on the processing

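Among the 123 called carrier differences, 0 reversed under any alternative run for them. The replicate number as a fixed block weakened 9 of them and left 0 carriers called in the early proximal colon, and as a random replicate block with state it weakened 0 and gave 11 calls between the untreated regions and 5 between the early regions. Using only the arrays of the groups compared gave 3 calls for early distal, 0 for the untreated regions and 1 for the early regions, and uses fewer arrays for the spread. Array weights gave 24 for early distal, 5 for late proximal, 10 for early proximal, 13 for late against early proximal, 22 for the untreated regions, 13 for the early regions and 3 for the early response difference, and the cause was not tested. No share of all genes is given for the fit with array weights, so these counts are not set against one. Untreated arrays 1 to 3 alone gave 0 for early proximal and 0 for the untreated regions, and untreated arrays 4 to 6 alone gave 12 for the untreated regions and 13 for the late response difference. Without untreated proximal 1 and untreated distal 3 there were 15 between the untreated regions. Without the 6 arrays with acinar transcripts, an alternative chosen after seeing the data, there was 1 for early distal and 1 for the early regions. The authors' deposited table called 0 in the early proximal, 34 in the late distal and 5 in the early distal colon. Leaving out 1 array at a time gave 32 to 36 calls for late distal, 2 to 12 for early distal, 9 to 22 for late against early distal, 0 to 3 for early proximal, 0 to 4 for late against early proximal, 2 to 15 for the untreated regions, 0 to 5 for the early regions, 25 to 31 for the late regions and 17 to 23 for the late response difference. It gave 0 throughout for late proximal and for the early response difference. Of all carriers 9 had a mean under 6, where background limits what can be measured.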
